A study of Homo sapiens with 6 samples.

Results

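The replication-dependent histone genes are the genes that supply the bulk of histones H1, H2A, H2B, H3 and H4 while a cell copies its DNA. They were taken from the hg19 annotation as the protein-coding genes with the symbols H1-1 to H1-6 or with H2AC, H2BC, H3C or H4C and a number. The annotation keeps older symbols for HIST1H4B, now H4C2, and HIST2H2AA3, now H2AC18, and both were included. These 66 genes, of 20163 protein-coding genes in all, comprise 6 for H1, 17 for H2A, 16 for H2B, 13 for H3 and 14 for H4. The cells were HCT116, an established line from a human colorectal cancer, and the method was ChIP-seq, in which DNA bound to a protein or mark is recovered with an antibody and sequenced. HCT116/Scrsh cells expressed a scramble shRNA and HCT116/ABsh-1 cells an shRNA against both KDM3A and KDM3B, while the labels of the samples speak of siRNA treatment. The series had 6 libraries, an anti-KDM3B, an anti-H3K9me2 and an input library of each population, and the authors deposited 1 list of regions enriched over input for each of the 4 antibody libraries. No condition had a replicate, so single libraries are set side by side and no difference between the populations was tested. The lists hold no read numbers and no measure of how much KDM3A or KDM3B protein was left, and the depth of each library is unknown. A gene was counted when at least 1 bp of a region lay within 1 kb or 5 kb of its transcription start site (TSS).

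Replication-dependent histone genes lie in dense clusters on chromosomes 6 and 1. Their transcription rises in S phase through the coactivator NPAT and promoter elements that differ among histone types, and their mRNAs end in a stem-loop bound by SLBP instead of a poly(A) tail. Many H2A and H2B genes stand head to head and share a promoter. KDM3B and its relative KDM3A are demethylases that remove dimethyl marks from lysine 9 of histone H3, and H3K9me2 is a mark associated with silent chromatin.

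The stem-loop, which the choice of genes did not use, was present in 64 of the 66 histone genes. It was searched on the gene's strand in the 300 bases after the stop codon as an arm, a loop and the reverse complement of the arm. The arm was GG, a pair of pyrimidines and CT. The loop was limited to 4 bases of the form T, not G, T, not G. The same search met 67 of 20001 protein-coding genes, or 0.335%. The other 3 were H2AX, a DNA damage-responsive variant, and the H3 genes H3-4 and H3-7. Below are the stem-loops of 4 genes with a KDM3B or H3K9me2 region within 1 kb of the TSS, from hg19, with the arms in capitals. They stand at chr6:26027129-26027144 (minus strand), chr6:26123700-26123715 (minus), chr6:26225824-26225839 (plus) and chr6:27834575-27834590 (minus), in this order.
HIST1H4B: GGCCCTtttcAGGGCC
H2BC4: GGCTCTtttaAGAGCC
H3C6: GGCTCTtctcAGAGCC
H1-5: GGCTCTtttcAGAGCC

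The promoter, taken as the 250 bases before to the 50 bases after the TSS, was searched on both strands for the letters of 4 known elements. Sites of different elements were allowed to overlap, as were TATAAA and its reverse complement. A match is a description of the letters and does not show that a factor binds. The TATA box letters TATAAA were found in 44 of the 66 histone genes and in 9.78% of all protein-coding genes. The letters CCAAT, bound in many genes by NF-Y, were found in 55 of the histone genes and in 35.9% of all genes. They were in all 6 H1, all 16 H2B and all 13 H3 genes, in 16 of 17 H2A genes and in 4 of 14 H4 genes. The octamer ATTTGCAT, the element of the factor OCT1, was found in 12 H2A and 12 H2B genes, in no other histone gene and in 1.58% of all genes. The letters AAACACA of the H1 box were in all 6 H1 genes, in 1 H2A and 2 H3 genes and in 4.2% of all genes. The stretches below show 1 element, in capitals, for genes with KDM3B regions (the first 5) and for genes with H3K9me2 regions (the last pair).
H2BC4, octamer, chr6:26124259-26124288, minus: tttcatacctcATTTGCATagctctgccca
H2BC21, octamer, chr1:149858260-149858289, minus: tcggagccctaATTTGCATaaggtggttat
HIST1H4B, TATA box, chr6:26027525-26027554, minus: ccgatgttcgtgTATAAAtgctcgtggctt
H4C4, TATA box, chr6:26189352-26189381, minus: ccgtcatgctatTATAAAagtgctgcgtgg
H1-4, H1 box, chr6:26156429-26156458, plus: tgaggtgtaacAAACACAactcgggatccg
H1-5, H1 box, chr6:27835465-27835494, minus: tgaggactaacAAACACAatttgggagtcc
H3C6, CCAAT box, chr6:26225297-26225326, plus: atcgtccacaatCCAATcagagtgattctg

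KDM3B regions lay within 1 kb of the TSS of 35 of the 66 histone genes in HCT116/Scrsh and of 37 in HCT116/ABsh-1. These are 53.0% and 56.1% of the histone genes, while 20.4% and 10.0% of all protein-coding genes had such a region. Within 5 kb of the TSS, KDM3B was found at 41 histone genes (62.1%) in HCT116/Scrsh cells and at 40 (60.6%) in HCT116/ABsh-1 cells, beside 27.6% and 14.5% of all protein-coding genes. H3K9me2 regions were within 1 kb of none of the histone genes in HCT116/Scrsh and of 8 (12.1%) in HCT116/ABsh-1, beside 2.70% and 24.9% of all genes. Within 5 kb they were found at 1 and 12 (18.2%) histone genes, beside 6.10% and 40.7% of all genes. The histone genes were thus above the background for KDM3B in both populations. For H3K9me2 they were below it in HCT116/ABsh-1 as a whole, but not in every range of base composition, as given below. In HCT116/Scrsh the H3K9me2 background is itself low, so counts of 0 and 1 hardly set the histone genes apart from it. All these counts take in 8 genes on chromosome 1 that could not be fully measured. Neighbouring genes share regions, and the 66 genes are not independent of each other. In HCT116/Scrsh, 44 distinct KDM3B regions within 5 kb of a histone TSS made 92 pairs of a gene and a region, and in HCT116/ABsh-1 36 regions made 72 pairs.

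**Figure D1:**
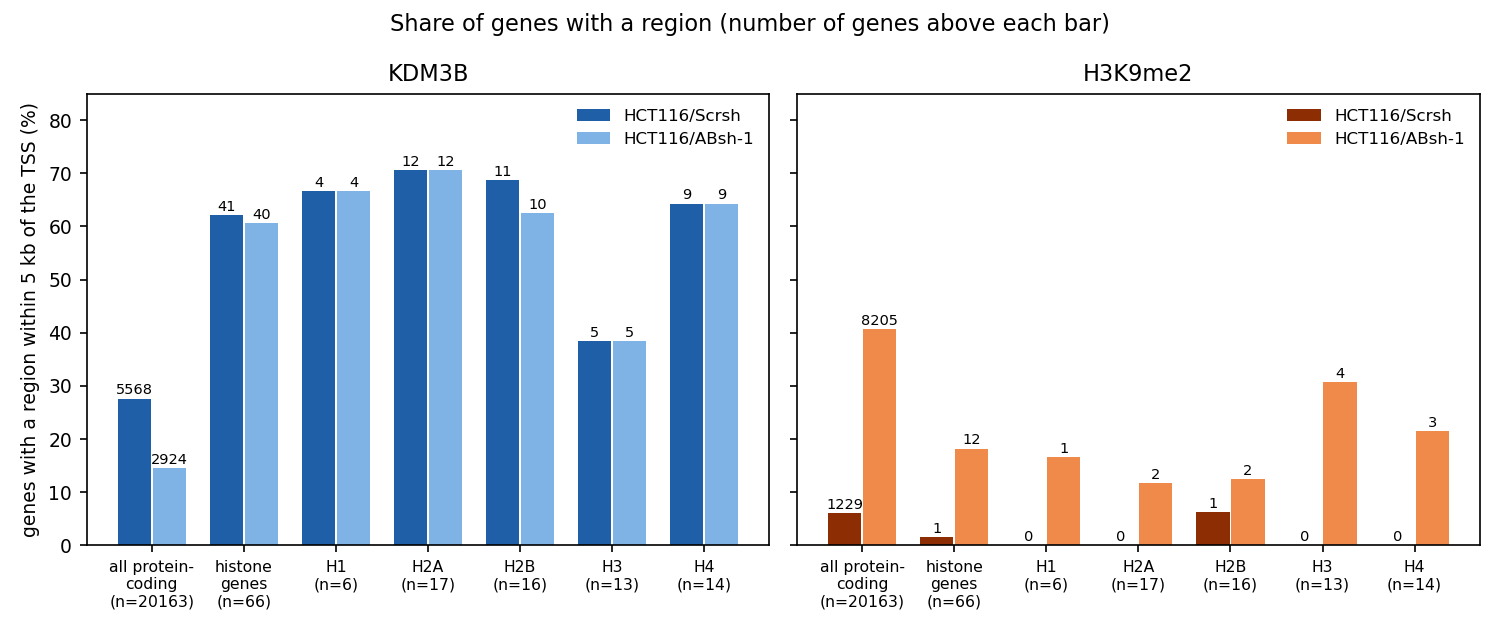
Percent of genes with a KDM3B (left) or H3K9me2 (right) region within 5 kb of the TSS, for all protein-coding genes, the 66 histone genes and each histone type, with 1 bar per population and the number of genes above it. KDM3B bars of the histone genes stand at 62.1% and 60.6% beside 27.6% and 14.5% of all genes, and the H3K9me2 bar in HCT116/ABsh-1 at 18.2% beside 40.7%.

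By histone type, KDM3B was within 5 kb of 12 of 17 H2A genes in each population and of 9 of 14 H4 genes in each. It was within 5 kb of 11 of 16 H2B genes in HCT116/Scrsh cells and 10 in HCT116/ABsh-1, and of 4 of 6 genes of the linker histone H1 in each. The H3 genes had the lowest share, 5 of 13 in each population. These 13 include H3C13, H3C14 and H3C15, which had no region in any list. Of the possible reads within 5 kb of their TSSs, 33.4%, 27.2% and 26.7% have 1 position in the genome. KDM3B at these H3 genes could thus not be fully measured. The H2A, H2B and H4 counts also take in such genes on chromosome 1. H3K9me2 in HCT116/ABsh-1 was within 5 kb of 4 H3, 3 H4, 2 H2A, 2 H2B and 1 H1 genes. The differences between types were not tested, and H2A and H2B counts share regions through their common promoters.

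The 14 H4 genes, which encode the same core histone, held several of the KDM3B regions with the highest score. The score is a whole number from the authors whose meaning is not stated, and it served only to rank regions within a list. A region of 1200 bp at HIST1H4B, chr6:26026601-26027800, had the same borders in both populations and was rank 6 of 17638 regions in HCT116/Scrsh and rank 14 of 8046 in HCT116/ABsh-1. The TATA box stretch printed for HIST1H4B lay inside it. Its cover within 5 kb of the TSS, which takes in a further region, was 1580 bp in HCT116/Scrsh and 1400 bp in HCT116/ABsh-1. At H4C5 a region of 600 bp, again with the same borders, ranked 10 and 28. At H4C4 the region ran over 900 bp in HCT116/Scrsh (rank 16) and 500 bp in HCT116/ABsh-1 (rank 68). At H4C3 it ran over 500 bp (rank 18) and 400 bp (rank 34). All 4 of these H4 genes kept their leading region in the depleted cells. H4C1 went from 977 to 377 covered bp within 5 kb. The 600-bp region over its TSS in HCT116/Scrsh overlapped no region of HCT116/ABsh-1. H4C8 went from 200 to 300 bp. H4C16, the single histone gene on chromosome 12, went from 1000 to 500 bp. H4C11 had 400 and 100 bp and H4C12 300 and 200 bp, in windows where 73.6% and 80.2% of possible 50-base reads have 1 position in the genome.

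The H2A and H2B genes among the 66 form 10 head-to-head pairs, with 194 to 251 bp between their start sites. Both genes of a pair had to be among the 66. A gene such as H2AC7 or H2AC8, for which these hold no such partner, counted as unpaired. A KDM3B region lay between the start sites of 8 of the 10 pairs in each population, and no H3K9me2 region did. Of the 20 genes in pairs, 18 had KDM3B within 5 kb in each population, while of the other 46 histone genes 23 did in HCT116/Scrsh cells and 22 in HCT116/ABsh-1. This difference was not tested. The other 46 genes include the 8 on chromosome 1 from H2BC18 to H4C15, which had no region in any list. At most 43.5% of the possible reads within 5 kb of their TSSs have 1 position in the genome. KDM3B at these 8 genes could thus not be fully measured. Both genes of the pair H2AC1 and H2BC1, whose products are histones known from the testis, had no KDM3B region within 5 kb in either population. At H2BC4 and H2AC6 a region of 400 bp (rank 213) spanned the shared promoter in HCT116/Scrsh and one of 600 bp (rank 68) in HCT116/ABsh-1, and the octamer stretch printed for H2BC4 was inside both. Another region, over the end of H2BC4, was rank 5 in HCT116/Scrsh, at chr6:26123001-26123800. In HCT116/ABsh-1 the region that overlapped it, chr6:26122801-26123500, lay just beyond the end of the gene. It was rank 7, the best of any histone gene in that list. The cover within 5 kb of H2BC4 and of H2AC6 was 1600 bp in HCT116/Scrsh and 1300 bp in HCT116/ABsh-1.

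The pair H2BC21 and H2AC20 on chromosome 1 had 1700 bp of KDM3B cover in HCT116/Scrsh and 900 bp in HCT116/ABsh-1, and so did their neighbour H2AC21. The octamer stretch of H2BC21 was inside a region in both lists. H2AC17 and H2BC17 had the same totals, 1700 and 900 bp, with 1 region of 500 bp over the promoter in both populations. H2AC25 and H2BC26, the pair on the long arm of chromosome 1 far from the other genes, had 800 bp in HCT116/Scrsh and 500 bp in HCT116/ABsh-1. For H2BC12 and H2AC12 the values were 800 and 400 bp. H2BC11 and H2AC11 moved the other way, from 700 to 800 bp. H2AC15 and H2BC15 had 400 and 300 bp, and H2AC14 and H2BC14 500 and 100 bp. At H2BC13 and H2AC13 the 400 bp in HCT116/Scrsh lay more than 1 kb away, over H3C10, whereas the 200 bp in HCT116/ABsh-1 lay over the shared promoter. Among the H2A and H2B genes outside these pairs, H2AC4 had 900 and 800 bp, H2AC7 700 and 600 bp, and H2BC5 1700 and 900 bp. H2BC6 was the only histone gene with KDM3B within 5 kb in HCT116/Scrsh and not in HCT116/ABsh-1. Its 389 bp came from the edge of the H4C4 region, whose centre was 5061.5 bp away.

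Of the linker histone genes, H1-4 had 1700 bp of KDM3B cover in HCT116/Scrsh and 900 bp in HCT116/ABsh-1, most of it in a region between H1-4 and H2BC5 of 1200 bp (rank 13) that became 800 bp (rank 45). The region over the H1-4 promoter was 500 bp in HCT116/Scrsh and 100 bp in HCT116/ABsh-1, and the H1 box stretch printed for H1-4 lay inside the first but not the second. H1-2 had 600 and 500 bp, but the 200-bp region over its TSS in HCT116/Scrsh overlapped no region of HCT116/ABsh-1. H1-1 had 700 and 100 bp, all of it more than 1 kb from its TSS and nearer to H3C1 and H4C1. H1-6, a testis-type linker histone gene, was counted through the region over its neighbour H4C3, at 4212.5 bp, with 500 and 400 bp. H1-3 and H1-5 had no KDM3B region within 5 kb in either population.

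The H3 genes, which encode the histone that carries lysine 9, had KDM3B cover at H3C1, H3C2, H3C4, H3C10 and H3C12. H3C2 had 1374 bp in HCT116/Scrsh and 1274 bp in HCT116/ABsh-1, divided among the regions at HIST1H4B, H3C2 and H2AC4. H3C12 had 1700 and 900 bp, of which 100 bp were within 1 kb in each population. H3C1 had 700 and 100 bp, H3C4 700 and 600 bp, and H3C10 500 and 229 bp. H3C1, H3C2 and H3C12 had a region within 1 kb in both populations. The regions of H3C2 overlapped between the lists, whereas those of H3C1 and of H3C12 did not. H3C10 had a region within 1 kb in HCT116/Scrsh only, and H3C4 in HCT116/ABsh-1 only.

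Of the 35 histone genes with KDM3B within 1 kb in HCT116/Scrsh, 34 had it in HCT116/ABsh-1, and of the 41 with KDM3B within 5 kb, 40 did. Over all protein-coding genes with KDM3B in HCT116/Scrsh, 33.1% had it in HCT116/ABsh-1 within 1 kb and 38.2% within 5 kb. A gene can be counted in both populations through regions that do not overlap. Examples, not a full list, are H3C1, H3C12 and the pair H2AC14 and H2BC14 within 1 kb. The pair H2BC13 and H2AC13 is one within 5 kb. Of the 44 regions of HCT116/Scrsh, 26 overlapped one of HCT116/ABsh-1. The covered length differed as well. Between the populations 38 of 41 histone genes had fewer covered bases within 5 kb in HCT116/ABsh-1, and 3 had more, namely H4C8, H2BC11 and H2AC11. The mean over the 66 genes was 570 bp in HCT116/Scrsh and 354 bp in HCT116/ABsh-1, a ratio of 0.621. Over all protein-coding genes the means were 71.5 and 29 bp, a ratio of 0.406. Among genes covered in both populations the median ratio was 0.542 for the 40 histone genes and 0.750 for 2127 protein-coding genes. A larger share of the histone genes than of the background thus had a KDM3B region in both populations, while the ratio of covered bases among genes covered in both was lower for them. Neither contrast was tested. The second leaves out genes with no cover in HCT116/ABsh-1. Regions come in steps of 100 bp, which is also the median width in both whole lists. A gene with 1 such region can hardly have less cover and still be counted. The ratio of the means, which leaves no gene out, was higher for the histone genes. The direction of the difference in gene number depended on the threshold. When only the better-scoring 50% of each list was used, KDM3B was within 1 kb of 33 histone genes in HCT116/Scrsh cells and 28 in HCT116/ABsh-1, beside 11.8% and 4.96% of all genes. With the 8046 regions of highest score in each list, the counts within 1 kb were 32 and 37, beside 10.8% and 10.0% of all genes. Within 5 kb they were 41 and 40, beside 14.8% and 14.5%.

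Around the TSS, KDM3B cover of the histone genes was highest in the 100 bp just upstream, where 42.5% of the bases were covered in HCT116/Scrsh cells and 35.9% in HCT116/ABsh-1. Over all protein-coding genes the highest values were 7.78% and 3.54%. In HCT116/Scrsh the mean cover of the histone genes in the 1 kb upstream and the 1 kb downstream was 15.3% and 15.1%, and in HCT116/ABsh-1 it was 12.9% and 10.1%. Of the 44 regions in HCT116/Scrsh, 22 covered a histone TSS and 26 overlapped a histone gene, and of the 36 in HCT116/ABsh-1, 19 and 25 did. The elements lie close to the TSS, where KDM3B cover was highest, so the counts of sites do not set them apart from neighbouring bases. These counts were not made over all genes. A whole 30-base stretch around a TATA box lay inside a KDM3B region in 18 of 44 genes in each population, and around an octamer in 11 of 24 genes in HCT116/Scrsh cells and 12 in HCT116/ABsh-1. Genes with and without the octamer had KDM3B within 1 kb in 15 of 24 and 20 of 42 cases in HCT116/Scrsh. For the TATA box the numbers were 26 of 44 with and 9 of 22 without. The other elements went the opposite way, with 28 of 55 genes with and 7 of 11 without the CCAAT box, and 3 of 9 with and 32 of 57 without the H1 box. None of these differences was tested, and paired genes share their sites.

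**Figure D2:**
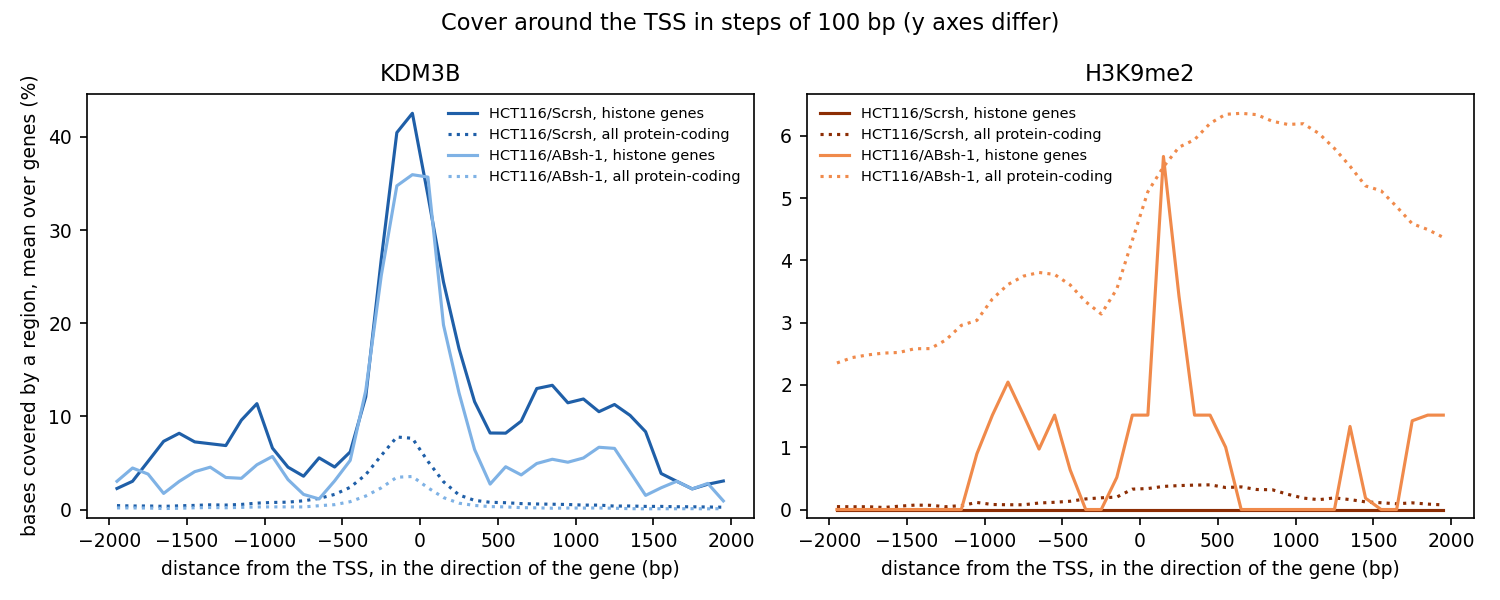
Percent of bases covered by a region, as a mean over genes in steps of 100 bp from 2000 bp before to 2000 bp after the TSS, for KDM3B (left) and H3K9me2 (right), with solid lines for the 66 histone genes and dotted lines for all protein-coding genes (the vertical axes differ). KDM3B over the histone genes peaks at 42.5% in HCT116/Scrsh cells and 35.9% in HCT116/ABsh-1 just upstream of the TSS, and the H3K9me2 line of the histone genes in HCT116/Scrsh stays at 0.

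The KDM3B regions near histone genes ranked high in their lists. In HCT116/Scrsh 23 of the 44 regions (52.3%) were among the 10% of the list with the highest score, and the median region was at 8.90% from the top. In HCT116/ABsh-1 18 of 36 (50%) were in the highest 10%, with a median at 10.1%. Of the 20 regions with the highest score in HCT116/Scrsh, 6 were within 1 kb of a histone TSS, namely those at H2BC4, HIST1H4B, H4C5, H2BC5, H4C4 and H4C3. In HCT116/ABsh-1 2 of the highest 20 and 13 of the highest 200 were. Their median width was 400 bp in HCT116/Scrsh and 250 bp in HCT116/ABsh-1, whereas it was 100 bp in both whole lists. In HCT116/Scrsh 26 of the 44 regions (59.1%) overlapped a region of the other population, beside 25.7% of the whole list, and in HCT116/ABsh-1 26 of 36 (72.2%) did, beside 56.4%. The H3K9me2 regions gave another picture. None of the 8 in HCT116/ABsh-1 was in the highest 10%, their median was at 58.7% and their median width was 150 bp, beside 200 bp in the whole list.

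**Figure D3:**
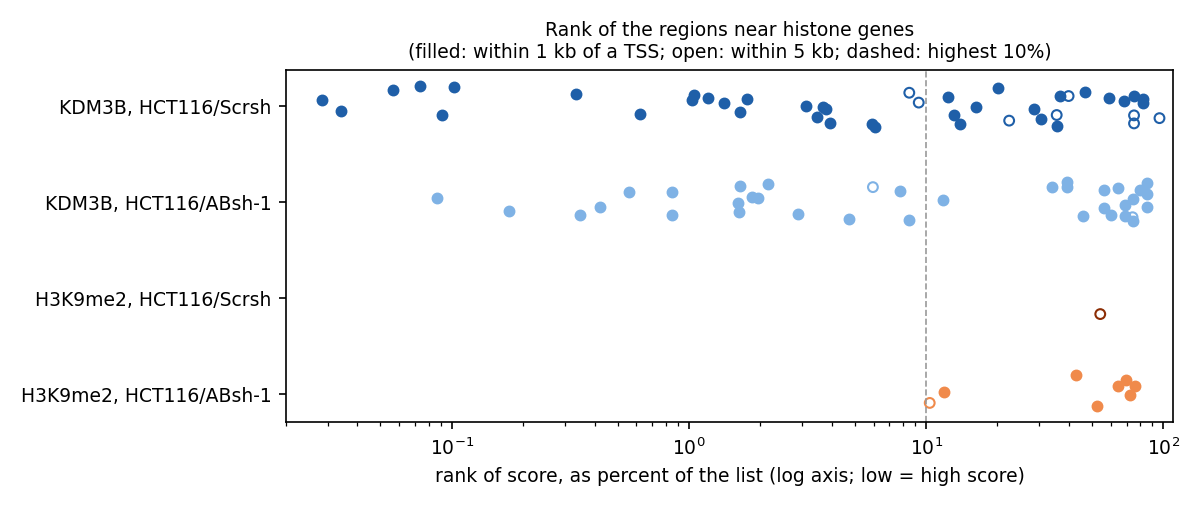
Rank of each region near a histone gene by the authors' score, as a percent of its list on a log axis (low values are high scores), with filled points within 1 kb of a TSS, open points farther away and a dashed line at 10%. In KDM3B 23 of 44 points in HCT116/Scrsh and 18 of 36 in HCT116/ABsh-1 lie left of the line, and no H3K9me2 point does.

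Along the chromosomes the histone genes fall into 6 groups when a gap of 500 kb separates groups. On chromosome 6 they are a stretch of 31 genes from H2AC1 to H4C8, one of 5 from H2BC11 to H2AC12 and one of 16 from H2BC13 to H2BC17. KDM3B was within 5 kb of 19, 4 and 12 of these genes in HCT116/Scrsh and of 18, 4 and 12 in HCT116/ABsh-1. In each of these 3 stretches genes with and without KDM3B came in runs. From H1-1 to H4C5, 18 of 20 genes had KDM3B in at least 1 population, H2BC3 and H3C3 being the exceptions. The next 8 genes, from H2AC8 to H2BC10 over 56.0 kb, had none in either population, and H4C8 beyond them had KDM3B in both. In the stretch that ends with H2BC17, 9 genes from H2BC13 to H2BC15 had KDM3B in both populations, then 4 genes from H2AC16 to H4C13 over 8.22 kb had none, and the last 3 had it in both. H4C9, between the pairs H2BC11 and H2AC11 and H2BC12 and H2AC12, had none.

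On chromosome 1, the 11 genes from H2BC18 to H2AC21 split by how well reads can be placed. The 3 genes at the end, H2BC21, H2AC20 and H2AC21, had KDM3B in both populations, and at least 91.8% of the possible 50-base reads in their 10-kb windows have 1 position in the genome. The other 8 genes, H2BC18 to H4C15, had no region in any list, and in their windows that share was 0 to 43.5%, with 0 at H4C14 and H4C15, in a stretch known for its near-identical copies. The authors kept only reads with 1 position, so KDM3B at these 8 genes could not be fully measured. Over the 56 histone genes with at least 90% of such reads, 39 had KDM3B within 5 kb in HCT116/Scrsh cells and 38 in HCT116/ABsh-1 (69.6% and 67.9%), and all 12 genes with H3K9me2 in HCT116/ABsh-1 were among them. No KDM3B region lay within 5 kb of 17 of these 56 genes in either population. The share of all protein-coding genes under the same limit was not counted, so these shares have no background beside them.

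H3K9me2 regions were few at the histone genes. In HCT116/Scrsh the single one was 100 bp wide, at 4845.5 bp from the TSS of H2BC1. In HCT116/ABsh-1, 12 histone genes had H3K9me2 within 5 kb that they lacked in HCT116/Scrsh (18.2%), while 35.4% of all protein-coding genes did. The mean cover within 5 kb over the 66 genes was 1.52 bp in HCT116/Scrsh and 54.6 bp in HCT116/ABsh-1, beside 11.8 and 343 bp over all protein-coding genes. H1-5, a linker histone gene, had the most, 1000 bp in 3 regions, of which a region of 700 bp lay over its TSS at chr6:27834801-27835500. This was the one H3K9me2 region that covered a histone TSS, and the H1 box stretch printed for H1-5 was inside it. Its neighbour H2AC16 had 900 bp in 2 regions and H3C11 477 bp in 2 regions, and both counts include the H1-5 region. H2AC25 had 227 bp from a region of 700 bp centred 5123.5 bp away. H3C8 and H2BC10 shared a region of 200 bp between them.

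At H3C6, H4C7, H4C9 and H3C11 a single 100-bp region lay inside the gene, with its centre 173.5 to 189.5 bp downstream of the TSS. The CCAAT stretch printed for H3C6 was not in any region. H3C7 and H2BC9 were counted within 5 kb through the region of H4C7, and H4C13 through that of H3C11. These 100-bp regions ranked at 64.5% to 76.3% from the top of their list. The number of histone genes with H3K9me2 within 1 kb in HCT116/ABsh-1 was 8 with the whole list, 3 with its better-scoring 50% and 1 with as many regions as the list of HCT116/Scrsh held, beside 24.9%, 17.6% and 6.86% of all genes.

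KDM3B and H3K9me2 regions lay at different histone genes. In HCT116/ABsh-1, H3K9me2 was within 1 kb of none of the 37 histone genes with KDM3B within 1 kb and of 8 of the 29 without (27.6%). Over all protein-coding genes it was within 1 kb of 10.9% of those with KDM3B and of 26.4% of those without. Within 5 kb the numbers were 1 of 40, the gene H2AC25, and 11 of 26 (42.3%). Over all protein-coding genes the shares within 5 kb were 41.1% and 40.6%, close to each other. The 25 histone genes with KDM3B in neither population held 11 of the 12 with H3K9me2, and 10 of those 11 were in the runs from H2AC8 to H2BC10 and from H2AC16 to H4C13. The genes of a run are neighbours that share regions, so that 8 distinct H3K9me2 regions gave these counts, and no test was made.

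Base composition moved with H3K9me2 over the genome. The GC content within 1 kb of the TSS had a median of 48.9% over the histone genes, 55.9% over all protein-coding genes and 60.3% over genes with H3K9me2 within 5 kb in HCT116/ABsh-1. The ratio of observed to expected CpG, a measure of CpG island character, had a median of 0.768 in the histone genes and 0.635 in all. Among genes with 40 to 45% GC, 2 of 8 histone genes (25%) had H3K9me2 within 5 kb in HCT116/ABsh-1, beside 10.3% of 1337 protein-coding genes. Among genes with 45 to 50% GC, 8 of 35 histone genes (22.9%) had H3K9me2 within 5 kb in HCT116/ABsh-1, beside 20.1% of 2473 protein-coding genes. With 50 to 55% GC it was 2 of 17 (11.8%) beside 31.2%, and with 55 to 65% it was 0 of 6 beside 50.9%. KDM3B in HCT116/ABsh-1 was within 5 kb of 20 of the 35 histone genes with 45 to 50% GC (57.1%), beside 11.6% of all genes in that range. In this range the histone genes were above the background for KDM3B and near it for H3K9me2. For H3K9me2 they were above the background at lower GC and below it at higher GC, with few histone genes in those ranges. At higher GC, the genes H4C14, H4C15, H3C14, HIST2H2AA3, H2AC19 and H3C15 had at most 43.5% of 50-base reads with 1 position. Of these, H4C14 and H4C15 were among the 17 genes with 50 to 55% GC, and the others among the 6 with 55 to 65%. The lower H3K9me2 share at higher GC thus takes in genes that could not be fully measured, mostly in the highest range. The part of base composition in the H3K9me2 counts was not tested. Histone genes with KDM3B in both populations and in neither had GC medians of 49.2% over 40 genes and 48.4% over 25 genes. Of those 25, the 17 genes with at least 90% of reads with 1 position had a median of 47.2%.

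Other genes of histone supply were nearer to the background of all protein-coding genes for KDM3B. Of 16 histone genes that are expressed outside S phase or in the germ line, 6 had KDM3B within 5 kb in HCT116/Scrsh cells and 3 in HCT116/ABsh-1, and 3 and 7 had H3K9me2. These are 37.5% and 18.8% for KDM3B and 18.8% and 43.8% for H3K9me2, beside 27.6%, 14.5%, 6.10% and 40.7% of all genes. H2AZ1, for the variant H2A.Z, had 700 and 300 bp of KDM3B cover, and H2AX had 100 and 300 bp. H2AJ had 1000 and 500 bp, all of it shared with its neighbour H4C16. H3-3A, for the replacement histone H3.3, had no region in any list, and H3-3B had 160 bp of KDM3B in HCT116/Scrsh alone.

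Of 22 regulators and processing factors of histone genes, 7 had KDM3B within 5 kb in HCT116/Scrsh cells and 6 in HCT116/ABsh-1, and 1 and 9 had H3K9me2. These are 31.8% and 27.3% for KDM3B and 4.55% and 40.9% for H3K9me2, beside the same shares of all genes. SLBP, which binds the stem-loop, had 100 and 200 bp of KDM3B cover and 146 bp of H3K9me2 in HCT116/ABsh-1. NPAT, the coactivator of the clusters, had no KDM3B region and 100 bp of H3K9me2 in HCT116/ABsh-1. HINFP, which binds H4 promoters, had 200 bp of KDM3B in HCT116/Scrsh and no other region. POU2F1, the gene of OCT1, had 200 bp of KDM3B in HCT116/ABsh-1 and no other region. Of the 7 other protein-coding genes that start within the histone clusters, 6 (SLC17A1, SLC17A2, SLC17A3, SLC17A4, TRIM38 and HFE) had no region in any list within 5 kb. The exception, a gene without a symbol, had 700 and 600 bp of KDM3B cover next to histone genes. None of these differences from the replication-dependent genes was tested.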

How the data were processed

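ChIP-seq regions of KDM3B and H3K9me2 in HCT116/Scrsh and HCT116/ABsh-1 were used as deposited, 1 list per library. Per the methods, the authors mapped 50-base reads to hg19 with Bowtie (version not given in the sources used here), kept reads with 1 position and compared ChIP with input in windows of 100 bp by a Poisson test. The methods ask for adjacent windows, yet 53.8% of the KDM3B regions of HCT116/Scrsh span 1 window. The score deposited by the authors is a whole number of at least 2 of unstated meaning and only ranked regions. Genes came from GENCODE 44 on hg19, with 1 TSS per gene (the canonical transcript, or the longest for genes without one, as for 2 of the 66). The members and lists were chosen with earlier results of these data known. Genes described in full were, per list, the 5 with most covered bases, those with a region within 1 kb in both lists of an antibody, and those with H3K9me2 in HCT116/Scrsh. Unique reads were counted by exact match, without mismatches. Overlap counting was tested on simulated data. The inputs, 2 libraries, were not analysed here. Python 3.11.15, numpy 2.4.6, pandas 2.3.3, numba 0.67.0 and matplotlib 3.10.9 were used. The alternatives were every annotated TSS, region centres, a minimum overlap of 50 bp, the better-scoring 50%, merged regions, equal region numbers, a wider gene list and well-mapped genes only.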

Additional observations from a re-analysis of the deposited data

How the results depend on the processing

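Of 96 counts and differences under 8 alternatives, 77 stayed within 1.5 times the reported value. The number of histone genes with KDM3B stayed so under every alternative, in both populations and both windows. The difference in KDM3B genes between HCT116/ABsh-1 and HCT116/Scrsh, 2 within 1 kb, was 1 with region centres, 5 with equal numbers of regions and -5 with the better-scoring 50% of each list. Within 5 kb it was -1, but 0 with every annotated TSS, with centres and with merged regions, and -7 with the better-scoring 50%. The cause was not tested. With that 50%, fewer regions are used, and H3K9me2 was near 3 histone genes within 1 kb and 6 within 5 kb in HCT116/ABsh-1 and near 0 in HCT116/Scrsh, differences of 3 and 6. With equal numbers of regions it was near 1 and 4, differences of 1 and 3. In HCT116/Scrsh, H3K9me2 within 5 kb was at 0 genes with merged regions. Adding H3-4 and H3-7, whose older symbols have the same form, gave 1 gene within 1 kb and 2 within 5 kb. No paired analysis was possible because each condition had 1 library. No count here carries an error over replicates, depth is unknown, and a lack of a region does not show a lack of KDM3B or H3K9me2.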

Other observations

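The clusters also hold 14 histone pseudogenes, copies that the annotation gives as not coding for protein. Within 1 kb of their annotated starts, KDM3B was found at 0 in HCT116/Scrsh cells and at 1 in HCT116/ABsh-1, the pseudogene H4C10P. Of all protein-coding genes, 20.4% and 10.0% had such a region. H3K9me2 was found at 3 in HCT116/Scrsh cells and at 5 in HCT116/ABsh-1, beside 2.70% and 24.9% of all protein-coding genes. H2BC2P, H2AC2P and H2AC3P, in the gene-poor part of the chromosome 6 stretch that starts with H2AC1 and H2BC1, had H3K9me2 in both populations. H2AC10P and H2BC16P had it in HCT116/ABsh-1. At H2AC10P the region was the one that H3C8 and H2BC10 share, and at H2BC16P it was one counted at H2AC16. The KDM3B region at H4C10P was the one over the shared promoter of H2BC13 and H2AC13. The neighbours H2BC2P and H2AC2P were counted through the same regions. The pseudogenes were chosen after their values were seen, and their difference from the 66 coding genes was not tested.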
